A study of Mus musculus with 60 samples.

Results

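The 440 regions described here carried a called H3K27me3 peak in every one of 30 CUT&RUN libraries, whatever the Tet1 genotype of the cells and the day of differentiation. Peaks of all libraries were joined where they overlapped, which gave 4512 merged regions, and a region was kept for this set when each library had a peak in it. Of the other merged regions, 3388 had a peak in 2 to 29 libraries and 684 in 1 library. Members were thus chosen by the presence of peak calls alone, so presence itself is not a finding, and a region that lost its peak in any library could not be a member.

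The libraries came from mouse embryonic stem cells (ESCs) on the way to anterior neural progenitor cells. Tet1 knockout (KO), catalytically inactive Tet1 mutant (MUT) and wild-type (WT) cells were compared, all of B6129S6F1 Tet1<tm1Koh> origin and sampled at days 0, 2, 3 and 5 and at day 5 after 5 µM of the Wnt pathway inhibitor XAV939 had been present since day 2 (day 5 XAV). MUT lines are clones that were made by CRISPR and homology-directed repair, bFGF was given to all cultures until day 3, and feeder cells were removed before plating. Each of the 15 groups had 2 lines, KO15 with KO25 (days 0 and 2) or KO1 (from day 3), CM59 with CM40 and then CM69 for MUT, and WT70 with WT72. A change of the second KO and MUT line between days 2 and 3 thus goes along with time. Values below are given for KO15, CM59 or WT70 first and for the partner line second. The 2 replicates of a group are cell lines, and the MUT lines are clones of a shared parental WT line. Lines recur over time points and their libraries were treated as separate. The p-values thus measure the spread between libraries and not between independent lines. Libraries held 704 to 3466 peaks, and the read depth behind a peak is unknown from the deposited values. The 704 peaks of CM59 at day 5 XAV and the 969 of WT70 at day 3 were the lowest numbers.

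H3K27me3 is laid down by Polycomb repressive complex 2 (PRC2), which in ESCs occupies CpG-rich start regions of developmental regulators that are held silent but ready for use. TET1 oxidises 5-methylcytosine, acts in part without this enzyme activity, and has been linked to PRC2 at such promoters. Genes that are switched on in a lineage commonly lose the mark, and broad domains such as those over the Hox clusters can hold it over long distances.

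Stretches of 200 bases are printed for 6 members so that the sequence under some of the most heavily marked regions, and under those with the smallest p in a comparison, can be read. They are the HoxA and HoxB clusters, from the 3 members of best mean rank (the HoxC window is not shown), and the members of smallest p in each direction for KO against WT at day 5 (Rfx4 and Col13a1) and for day 5 against day 0 in WT (Tbx3 and Lmx1b), and each is the window within 1.5 kb of a start site that holds the most CG dinucleotides without touching an annotated untranslated region. Each is written 5′ to 3′ on the strand of its gene from the reference genome (GRCm38/mm10), and capitals mark CG dinucleotides, the substrate of cytosine methylation.
HoxA cluster: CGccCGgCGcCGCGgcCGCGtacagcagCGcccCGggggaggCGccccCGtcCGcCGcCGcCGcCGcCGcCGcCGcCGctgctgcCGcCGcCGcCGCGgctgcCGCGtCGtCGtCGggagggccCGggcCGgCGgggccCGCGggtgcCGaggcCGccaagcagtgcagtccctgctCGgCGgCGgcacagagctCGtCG
HoxB cluster: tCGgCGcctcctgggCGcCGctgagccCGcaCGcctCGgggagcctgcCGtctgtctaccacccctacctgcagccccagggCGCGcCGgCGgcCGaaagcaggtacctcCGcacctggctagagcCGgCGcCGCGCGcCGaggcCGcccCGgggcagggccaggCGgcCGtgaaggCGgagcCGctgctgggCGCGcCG
Rfx4: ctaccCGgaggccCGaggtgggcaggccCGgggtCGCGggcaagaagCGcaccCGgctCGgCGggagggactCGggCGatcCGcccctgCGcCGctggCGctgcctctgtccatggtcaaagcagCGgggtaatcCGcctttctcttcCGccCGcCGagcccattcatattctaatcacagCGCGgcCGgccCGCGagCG
Col13a1: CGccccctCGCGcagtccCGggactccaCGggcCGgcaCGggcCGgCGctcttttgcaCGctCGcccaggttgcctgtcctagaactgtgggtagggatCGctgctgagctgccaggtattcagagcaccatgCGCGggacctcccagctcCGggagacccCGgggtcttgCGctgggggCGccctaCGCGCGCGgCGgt
Tbx3: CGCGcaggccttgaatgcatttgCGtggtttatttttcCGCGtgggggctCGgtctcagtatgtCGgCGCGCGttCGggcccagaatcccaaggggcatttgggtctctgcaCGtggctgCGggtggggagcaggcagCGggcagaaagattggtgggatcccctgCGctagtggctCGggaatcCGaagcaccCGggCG
Lmx1b: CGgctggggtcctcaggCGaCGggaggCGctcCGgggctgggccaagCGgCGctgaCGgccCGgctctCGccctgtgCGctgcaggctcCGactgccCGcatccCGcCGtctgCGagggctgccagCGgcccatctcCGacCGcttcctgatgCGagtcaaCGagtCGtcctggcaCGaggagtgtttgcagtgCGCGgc
The HoxA window (chr6:52260288-52260487, minus strand) lies in coding sequence of Hoxa13 and has 42 CG. The HoxB window (chr11:96271717-96271916, plus strand) lies in coding sequence of Hoxb9 and has 29 CG. The Rfx4 window (chr10:84754857-84755056, plus strand) lies upstream of the Rfx4 start and has 26 CG, whereas the Col13a1 window (chr10:61978108-61978307, minus strand) is intragenic and non-coding, starts 766 bases after the start site and has 23 CG. The Tbx3 window (chr5:119670119-119670318, plus strand) is upstream of its gene and has 19 CG, and the Lmx1b window (chr2:33639561-33639760, minus strand) holds 25 CG, with 115 of its 200 bases in coding sequence. Of the kept regions with such a window, 99.6% had fewer CG than HoxA, 80.1% fewer than HoxB, 69.2% fewer than Rfx4, 65.6% fewer than Lmx1b, 57.2% fewer than Col13a1 and 39.7% fewer than Tbx3. The median window had 25 CG in 404 members and 20 CG in 2532 other kept regions. Each window is the best over all start sites of its region, and members held a median of 2 start sites against 1. More start sites give more windows to choose from, so these shares and medians carry no test. Over whole regions the median number of CG per kb was 24.5 in members and 23.3 in the others. As a description, then, 5 of the 6 printed windows are richer in CG than the median other region and Tbx3 is not.

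Of the 440 members, 165 were at a gene of the lists used below, most of which hold transcription factors of body patterning. A protein-coding start site (504 genes) lay in 407 members, or 92.5%, against 74.9% of the other regions kept for testing (those with a peak in 2 to 29 libraries), and 52 members held starts of 2 or more genes. Members were also wider, with a median of 15.6 kb against 6.85 kb. A wider region has more room for a start site, so this contrast carries no test. All 39 protein-coding Hox genes, which set position along the body axis, were at 5 members. Of 26 forebrain and eye field regulators 19 were at members, as were 24 of 28 midbrain, hindbrain and spinal cord regulators, 34 of 46 neuronal transcription factors, 31 of 53 mesoderm regulators, 13 of 23 endoderm regulators and 16 of 28 Fox family genes. So were 11 of 22 neural crest and surface ectoderm regulators, 9 of 25 primitive streak regulators and 5 of 15 neural progenitor factors. Of signalling and effector genes, the members held 10 of 19 Wnt ligands, 5 of 20 FGF and Hedgehog ligands, 3 of 28 BMP, Nodal and TGF-beta ligands and antagonists and 5 of 57 neuronal function genes. Of 21 pluripotency genes 2 were at members, of 16 feeder fibroblast markers 2 (Pdgfra and Twist2) and of 25 housekeeping genes 0. Over all 21842 protein-coding genes the share was 2.31%. These shares carry no test, because the members were chosen for having the mark.

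Base composition of the members was close to that of the other kept regions. Median GC content was 50.3% against 50.6%, the median observed-to-expected CpG ratio 0.388 against 0.369, and the median repeat-masked share 15.6% against 14.9%. Of the 33 members without a protein-coding start, some lie over small RNA genes. The member near Polg (chr7:79492730-79558939) holds Mir9-3hg, the host of the neural microRNA miR-9, and the one near Kif13b holds Mir124a-1hg, the host of neuronal miR-124. Over 50% of the sequence was repeat-masked in 4 members, near Gas8, Zmat1, Mgmt and Ndst3, and the one near Gas8 (chr8:123535393-123629770) contains 41 annotated 5S rRNA genes. How well reads can be placed in such repeats was not tested.

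The requirement of a peak in all libraries was a threshold that many similar regions missed narrowly. Regions with a peak in all 30 libraries had a median merged width of 15.6 kb, the 165 regions in 29 libraries 11.4 kb, and the 71 in 28 libraries 10.5 kb. Their median ranks by summed signal, where 1 is the strongest region of a library, were 262, 605 and 713. Of the 165 regions that missed 1 library, 100 lacked a peak only in CM59 at day 5 XAV and 23 only in WT70 at day 3, the libraries with the fewest peaks. At genes of the lists there were 25 such regions. Olig2, a spinal cord and oligodendrocyte regulator, lacked a peak only in WT70 at day 0, Fezf2 (forebrain) only in WT72 at day 5 XAV, and Foxc1, Isl1 and Bmp2 only in KO1 at day 5. Without the CM59 library at day 5 XAV there would be 540 members, and without the WT70 library at day 3 463.

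Members were broad, and the broad ones were often called as several peaks. Merged widths ran from 5.37 kb (Pax8) to 170 kb (HoxC cluster, chr15:102902294-103072772), and the 440 together span 8.70 Mb. In 202 members the call was a single peak in all 30 libraries, 101 were split into 2 or more peaks in 1 to 5 libraries, 61 in 6 to 14 libraries and 76 in at least 15. None was split in all 30. Splitting followed width. It was 0% of calls in the 55 members under 10 kb, 2.36% in 151 of 10 to 15 kb, 14.2% in 81 of 15 to 20 kb, 35.0% in 106 of 20 to 30 kb and 65.2% in 47 of at least 30 kb. A longer region has more room for a gap, so this gradient describes the calls and carries no test.

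**Figure D1:**
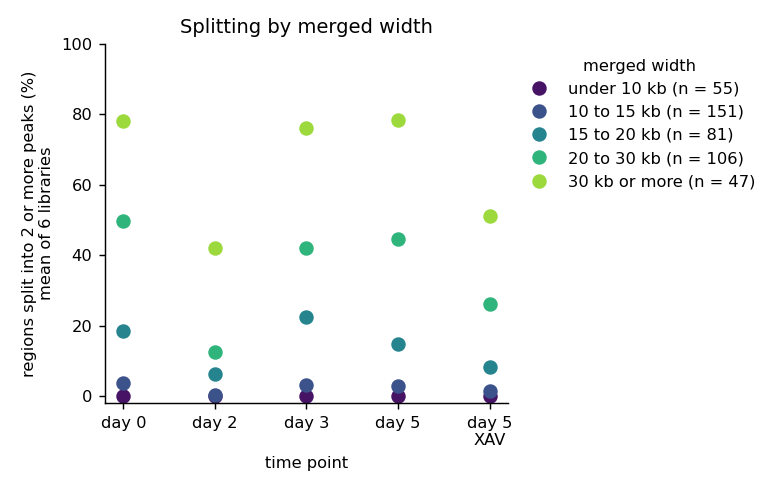
Share of members called as 2 or more peaks (y axis, percent, mean of 6 libraries) at each time point (x axis), with a colour for each class of merged width. Wider classes lie higher at all time points, and in members of at least 30 kb the share was lowest at day 2 with 42.2%, followed by 51.1% at day 5 XAV and 76.2% to 78.4% at the other times.

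The Hox clusters were the most finely divided. At day 0 the HoxC cluster was called as 13 and 18 peaks in KO, 7 and 5 in MUT and 9 and 14 in WT. At day 2 it was 2 and 1 peaks in KO, 8 and 3 in MUT and 3 and 2 in WT. At day 5 XAV it was 2 and 2 peaks in KO, 1 and 2 in MUT and 5 and 11 in WT. Counts of KO and MUT lay below those of WT in the XAV libraries, while at day 0 the genotypes overlapped. The HoxA cluster (chr6:52146131-52278622) had 1 and 2 peaks in KO, 4 and 5 in MUT and 6 and 8 in WT at day 5 XAV, and the HoxD cluster 2 and 1, 3 and 4, and 8 and 9 in the same order of genotypes. Zic1, a neural and neural crest regulator, and Dmbx1, a midbrain regulator, were split in 29 of 30 libraries, as were the members near Polg and at HoxB and HoxD. At the other end, Tlx1 (25.5 kb) and Skor1 (24.6 kb), which encode neuronal transcription factors, were a single peak in all 30 libraries.

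Splitting was least common at day 2. The share of the 440 members that were split had a median of 24.5% at day 0 (18.9% to 36.1% over 6 libraries), 7.16% at day 2 (5.45% to 18.6%), 21.4% at day 3 (14.8% to 34.8%), 23.5% at day 5 (18.0% to 25.9%) and 12.8% at day 5 XAV (5.91% to 24.3%). CM59 was the highest library of day 2 at 18.6%, and the other 5 of that day did not exceed 8.41%. At day 5 XAV the share was 5.91% and 9.32% in KO, 7.05% and 16.4% in MUT and 20.0% and 24.3% in WT. At day 5 without XAV it was 25.2% and 20.9% in KO, 25.9% and 18.0% in MUT and 24.8% and 22.3% in WT. Both KO and both MUT lines were thus below the same lines without XAV, whereas of the WT lines WT70 was below and WT72 above.

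**Figure D2:**
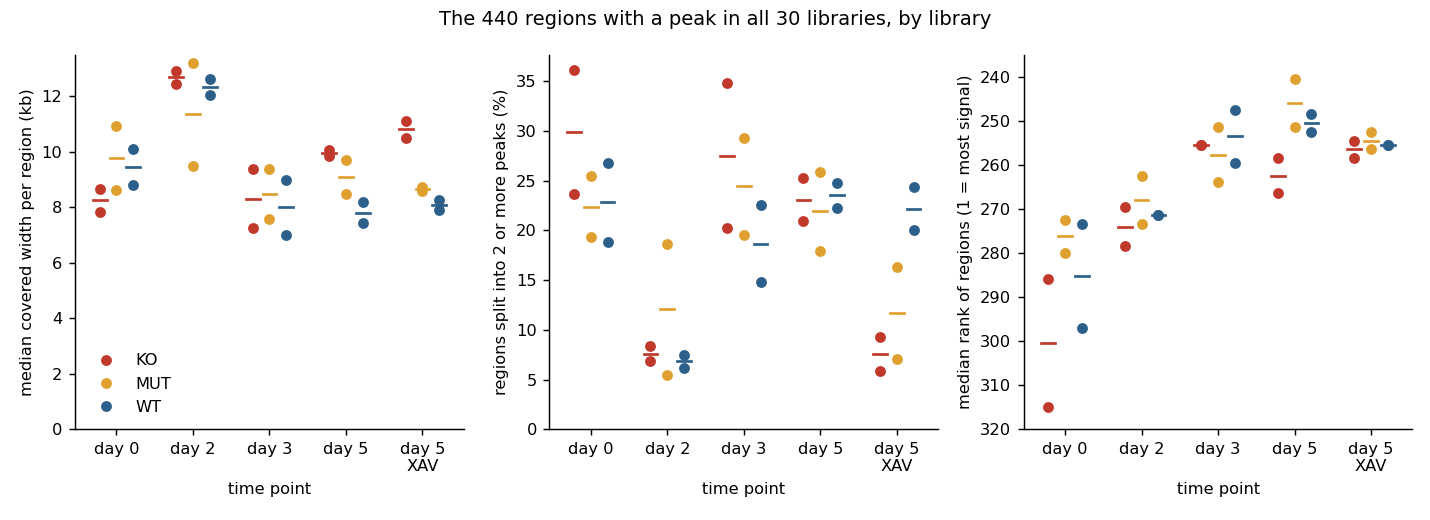
Width, splitting and rank of the 440 members in each of the 30 libraries (1 point a library, short lines at the group mean, KO left, MUT middle and WT right within a time point): median covered width in kb, percent of members split, and median rank with the top of the list upward. Day 2 has the widest calls (9.49 to 13.2 kb), and day 0 has the ranks furthest down (272.5 to 315).

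Over all members the mean number of peaks per region was 1.19 ± 0.13 at day 5 XAV and 1.37 ± 0.054 at day 5 (SD, n = 6 libraries each). It was lower with XAV in 3 of 3 genotypes, with an exact two-sided permutation p of 0.0185 (labels permuted within genotypes) and an adjusted p of 0.111 over the 12 tests of this kind. The median covered width per member was 10.0 ± 1.84 kb in KO and 9.13 ± 1.89 kb in WT (SD, n = 10 libraries each, exact permutation within time points p = 0.0895, adjusted p = 0.344), and 9.47 ± 1.59 kb in MUT (MUT against WT, exact p = 0.522). The median rank was 253 ± 8.85 at day 5 and 287 ± 16.3 at day 0 (SD, n = 6 each), nearer the top at day 5 in 3 of 3 genotypes. Its exact permutation p of 0.00926 is the smallest that this design can give, and the adjusted p was 0.111. None of the 12 tests passed adjustment, and the smallest unadjusted values were those for splitting with XAV and for rank over time. In the tests of XAV and of time, a single result cannot pass adjustment over 12 tests even at the smallest possible p. Their not passing is thus no sign that nothing changed. When each library was reduced to the same number of strongest peaks, the rank of members was 11.6 places further down in KO than in WT (adjusted p = 0.0332, exact permutation test over n = 10 libraries each). These libraries share cell lines over time points, which the permutation did not take into account. Under that setting peaks per region turned the other way and passed, at -0.061 for KO minus WT and 0.14 for day 5 minus day 0 (adjusted p = 0.0332 in both exact permutation tests), against 0.024 and -0.043 with all peaks.

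By rank within a library, the members held the top of the list throughout. Median rank over members was 240.5 to 315 in the 30 libraries among the 3828 regions kept. Within the best 440 ranks of a library there were 277 to 356 members. In all 30 libraries 177 members were within rank 440, and 17 were outside it in all 30. Signal in the members made up 37.8% to 79.1% of the summed peak signal of a library. Since presence in all libraries favours strong regions, these values describe the set and are no test of it.

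The 10 members of best mean rank were, in order, the HoxA, HoxC and HoxB clusters, the region near Gas8, the HoxD cluster, the region near Polg, Wnt10a and Wnt6, the region near Ezh2, Hoxb13 and Dmbx1. HoxA ranked 1 to 3, HoxC 1 to 6, HoxB 3 to 7 and HoxD 4 to 8 over the 30 libraries. Wnt10a and Wnt6, neighbouring genes for Wnt ligands, ranked 7 to 14. The region near Ezh2 had the widest range of the 10, 2 to 408. Hoxb13, the most posterior HoxB gene, came next with 6 to 87, at 87 and 26 in KO, 25 and 28 in MUT and 40 and 29 in WT at day 0 and at 8 and 9 in KO, 8 and 8 in MUT and 6 and 7 in WT at day 5. The steadiest member over the series was Nfatc1, a transcription factor gene of calcium signalling, with ranks of 148 to 218 and a standard deviation of 0.14 on the log2 scale. The median standard deviation over members was 0.42. It exceeded 1 in 17 members, among them the region near Ezh2 (1.64), Six3 (1.41), Tbx3 (1.38) and Lmx1b (1.21).

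To ask which members moved between groups, log2 ranks were compared with limma over all 3828 kept regions, and a region was called at a Benjamini-Hochberg adjusted p below 0.05. A negative difference means nearer the top of the library and a positive one further down. Between 2 and 180 of the 440 members were called, depending on the comparison. Of the 440, 280 were called in at least 1 of 12 comparisons (52.2% of all regions) and 160 in none. KO and WT libraries of day 5 enter several of these comparisons, as do those of day 0 and day 5 XAV, so the comparisons are not independent of each other.

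**Figure D3:**
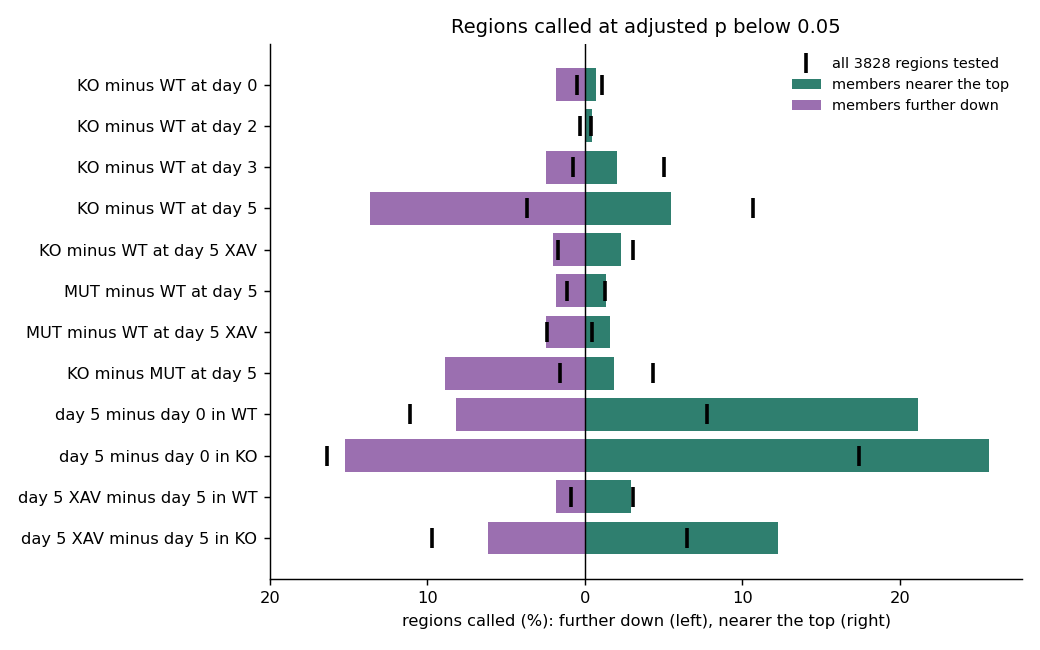
Percent of the 440 members called nearer the top or further down (bars, x axis in percent) in each comparison, with the same shares over all 3828 kept regions as black ticks. Day 5 against day 0 gives the longest bars (113 members nearer the top and 67 further down in KO), and KO against WT at day 5 has 60 members further down and 24 nearer the top.

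At day 5, KO cells differed from WT cells at 84 members. Further down in KO were 60, against 3.68% of all 3828 regions, and nearer the top were 24, against 10.7% of all regions, and in either direction 14.3% of all regions were called. In simulated ranks of this comparison, 52% of members with a log2 signal change of -1 were called but 16% with +1. Moves further down were thus easier to call, and the balance of 60 and 24 is no measure of a net change. Over members the median log2 difference was 0.14 and over all kept regions 0.22. Kept regions without a peak share a tied rank that depends on how many regions were called. Called regions numbered 2395 and 1916 in KO and 1053 and 1192 in WT, so the 0.22 is no baseline for members. Among the lists were regulators of the primitive streak, the embryonic structure that gives rise to mesoderm and endoderm. The lists were chosen with earlier results of these data known, so their counts describe the members and carry no test. Of the 25 streak genes, 13 were at other kept regions, which are not described here. Of 9 streak members 7 were further down in KO, 0 nearer the top, with a median difference of 1.96. T (Brachyury, chr17:8423875-8443161), a marker of the streak and early mesoderm, ranked 985 and 1179 in KO, 294 and 495 in MUT and 162 and 163 in WT. All KO values were lower in the list than all others, and MUT lay between, without overlap. The KO rank was 6.63 times the WT rank (log2 difference 2.73, SE 0.27, limma adjusted p = 4.5e-07). Its covered width at day 5 was 4.85 and 4.64 kb in KO, 8.13 and 4.85 kb in MUT and 9.32 and 10.6 kb in WT.

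Evx1, a homeobox gene active in the streak, ranked 162 and 199 in KO, 99 and 70 in MUT and 26 and 44 in WT at day 5, a log2 difference of KO from WT of 2.41 (SE 0.25, limma adjusted p = 1.1e-06). Lhx1, which acts in the anterior streak and axial mesoderm, ranked 299 and 1870 in KO, 72 and 68 in MUT and 34 and 50 in WT. Its KO lines differed greatly from each other and both were far below the other lines (log2 difference 4.18, SE 0.45, adjusted p = 1.1e-06). Foxa2, a regulator of endoderm and floor plate, ranked 238 and 747 in KO, 80 and 147 in MUT and 48 and 59 in WT (2.99, SE 0.35, adjusted p = 4.4e-06). Eomes, a T-box gene of the streak, ranked 708 and 1242 in KO, 269 and 291 in MUT and 219 and 267 in WT (1.96 on the log2 scale, adjusted p = 0.00045). The groups of KO and WT do not overlap at any of these genes. Cdx2 and Gsc also passed the test, while Wnt3a (log2 difference -0.08) and Nkx1-2 (-0.07) did not.

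Among endoderm and mesoderm regulators the called members were further down in KO with 1 exception. Over all regions 3.68% were further down and 10.7% nearer the top. Of 13 endoderm members 5 were further down in KO and 0 nearer the top (median 0.66), among them Foxa2 and Cdx2 of the streak list. Gata4, a cardiac and endoderm factor on both lists, ranked 113 and 144 in KO, 88 and 77 in MUT and 38 and 25 in WT (2.05, SE 0.29, adjusted p = 4.5e-05). Gata6, its relative, ranked 271 and 368 in KO, 121 and 126 in MUT and 129 and 126 in WT, with MUT and WT together at 121 to 129. Of 30 mesoderm members 10 were further down, Hand2, Tbx20 and Foxf1 among them, and 1, Pax1, nearer the top (median 0.52). Neither of the 2 members at feeder fibroblast markers, Pdgfra and Twist2, was called (median 0.62). Outside the lists, Col13a1, which encodes a collagen of the cell surface, ranked 1775 and 1601 in KO, 376 and 252 in MUT and 370 and 369 in WT (2.19, SE 0.22, adjusted p = 4.5e-07). Runx3, a transcription factor of blood and sensory neurons, ranked 551 and 660 in KO, 673 and 429 in MUT and 149 and 177 in WT, where KO and MUT overlap and WT is apart.

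Members nearer the top in KO at day 5 included regulators of the midbrain, hindbrain and spinal cord. Of 24 such members 6 were nearer the top and 0 further down (median -0.20), against 10.7% and 3.68% of all regions. Lmx1b, needed for the isthmus and roof plate, ranked 35 and 42 in KO, 84 and 86 in MUT and 122 and 144 in WT (log2 difference -1.79, SE 0.22, limma adjusted p = 5.5e-06). Pax2, a midbrain-hindbrain boundary gene, ranked 9 and 11 in KO, 16 and 20 in MUT and 72 and 32 in WT (-2.27, SE 0.30, adjusted p = 1.8e-05). The genotypes are in the same order at these genes, KO nearest the top, and do not overlap. Pax5, Pax7, Wnt1 and Dbx1 were the other 4. Of 5 neural progenitor members 3 were nearer the top, Sox1, Sox21 and Pou3f2 (median -1.05). Rfx4, a regulator of the neural tube, had the smallest p in this direction, at 198 and 161 in KO, 342 and 218 in MUT and 891 and 735 in WT (-2.18, SE 0.23, adjusted p = 1.1e-06).

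Forebrain regulators were mixed, with 2 of 17 members nearer the top (Pax6 and Lhx5) and 1 further down (Rax), and neuronal transcription factors had 1 nearer the top (Neurog2) and 4 further down, of which Evx1 and Lhx1 are also on the streak list. Over all regions 10.7% were nearer the top and 3.68% further down, and the forebrain counts were near these shares. None of the 5 Hox members was called, and their median was 0.00. The HoxA, HoxB, HoxC and HoxD clusters were at the very top in all libraries and had little room to move up. The region near Ezh2 (chr6:47650488-47687038), which holds no annotated gene, ranked 16 and 8 in KO, 12 and 10 in MUT and 408 and 223 in WT at day 5. Both WT lines stand apart here, with 24.4 and 30.6 kb covered in KO and 27.7 and 19.7 kb in MUT, against 4.60 and 7.80 kb in WT. At day 5 XAV the WT ranks were 18 and 9. Ranked by the highest point of the signal in place of its sum, the day 5 differences from WT kept their direction and lost the call. They were -2.23 in KO (limma adjusted p = 0.20) and -2.68 in MUT (0.32).

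**Figure D4:**
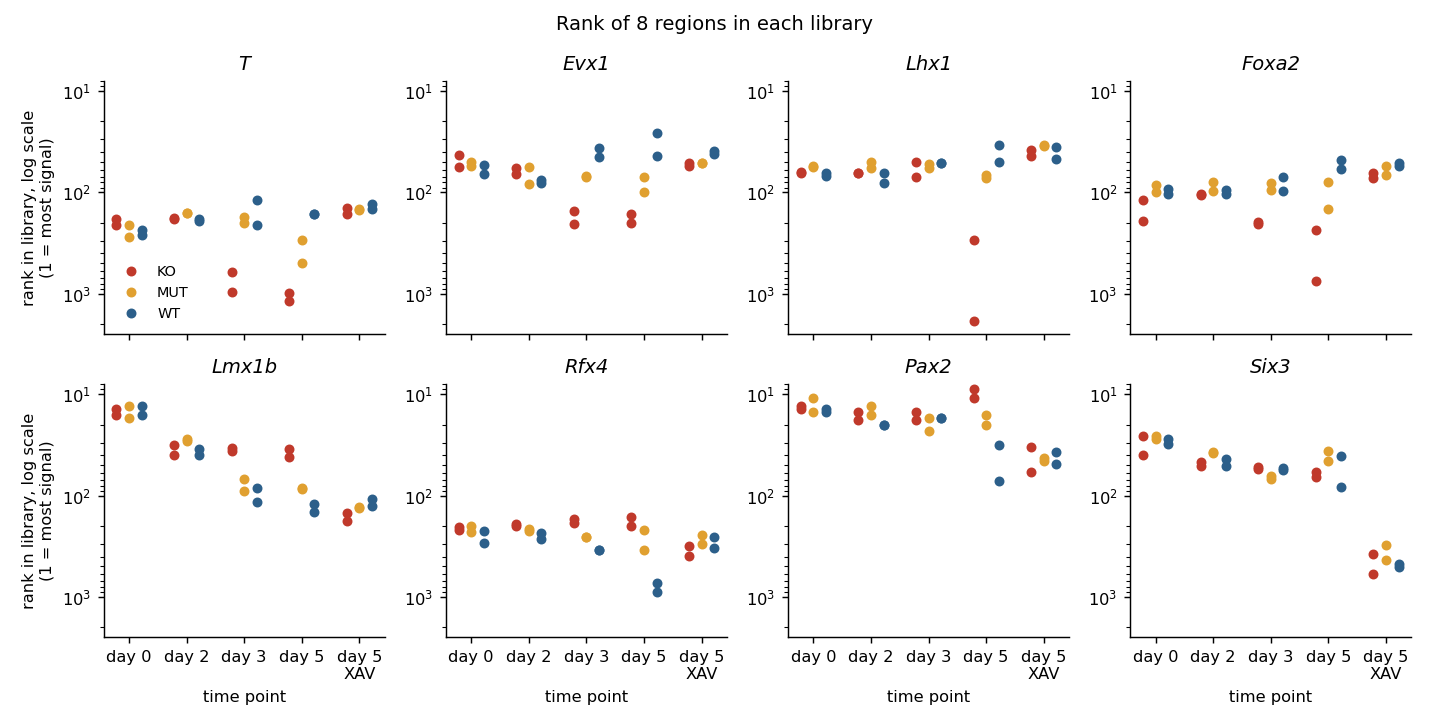
Rank within each library (log axis, top of the list upward) of T, Evx1, Lhx1, Foxa2, Lmx1b, Rfx4, Pax2 and Six3 by time point, 1 point a library, KO, MUT and WT from left to right. T is at 985 and 1179 in KO at day 5, and at 131 to 164 in all 6 libraries at day 5 XAV.

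These calls rest on the summed signal, which grows with width. Ranked by the highest point of the signal instead, 31 members were called at KO against WT at day 5, 24 further down and 7 nearer the top. T, Evx1, Lhx1, Runx3 and Rfx4 were still called with the same direction, whereas Pax2 (log2 difference 1.22), Sox1 (0.12) and Gata4 (-0.41) turned the other way without passing the test. Foxa2 (adjusted p = 0.078 in limma), Col13a1 (0.0503), Lmx1b (0.099), Wnt1 (0.23), Pax5 (0.61) and Pax7 (0.65) kept their direction and lost the call, so that none of these midbrain and hindbrain genes passed. KO libraries of day 5 also had more peaks, 2738 and 2122 in KO and 1270 and 1385 in WT. With the same number of strongest peaks in every library 59 members were called, 45 further down and 14 nearer the top, with T, Evx1 and Lhx1 among them and without Runx3 and Gata4. Leaving out KO1 or WT70 gave 45 calls and leaving out WT72 54.

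Some streak genes differed between KO and WT at day 3 as well, though not the same set as at day 5. At that day 11 members were further down in KO (0.784% of all regions) and 9 nearer the top (5.02% of all regions), with 5.8% of all regions called in either direction. T ranked 615 and 954 in KO, 203 and 175 in MUT and 118 and 212 in WT, with a log2 difference of KO from WT of 2.28 (SE 0.27, limma adjusted p = 1.3e-05). Evx1 ranked 152 and 205 in KO, 70 and 69 in MUT and 37 and 45 in WT (2.11, SE 0.25, adjusted p = 1.3e-05). KO stands apart from both other genotypes at both genes. Lhx1 showed no such pattern at day 3, at 50 and 70 in KO, 53 and 58 in MUT and 51 and 52 in WT (log2 difference 0.20, adjusted p = 0.72). Lmx1b was nearer the top in KO, at 36 and 34, against 116 and 85 in WT. Of 9 streak members 5 were called further down at day 3 (median 1.04). Nkx1-2 was among them and was not called at day 5. By the highest point of the signal 3 members were called, T among them. Evx1 (limma adjusted p = 0.38), Gsc (0.22) and Nkx1-2 (0.72) kept their direction and lost the call. Without WT70 5 were called, without KO15 or WT72 10 and without KO1 12.

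At days 0 and 2, KO and WT differed at few members. At day 0, 11 members were called (1.62% of all regions), 3 nearer the top (1.1% of all regions) and 8 further down in KO (0.522% of all regions). At day 2 there were 2 (0.679% of all regions), both nearer the top (0.366% of all regions), and 0 further down (0.313% of all regions). Dgat1 and Scrt1 ranked 215 and 289 in KO at day 0 and 731 and 623 in WT, and at day 2 257 and 361 in KO and 559 and 724 in WT. Scrt1 encodes a neuronal repressor and Dgat1 an enzyme of fat synthesis. Tbx3, a regulator active in ESCs, ranked 217 and 258 in KO, 126 and 77 in MUT and 68 and 114 in WT at day 0 (log2 difference 1.43, SE 0.32, limma adjusted p = 0.019), and by the highest point of the signal its difference was -0.38 and did not pass. Nkx2-1, a ventral forebrain gene, ranked 128 and 94 in KO and 48 and 56 in WT, with no overlap, and had a difference of 0.25 by the highest point, which did not pass. By the highest point of the signal there were 3 calls at day 0 and 0 at day 2, where 32 members had an unadjusted p under 0.05 by summed signal. Without WT70 there were 2 calls at day 0, without KO1 or WT72 6, and without KO25 21, and at day 2 there were 0 without KO15, WT70 or WT72.

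MUT cells differed from WT cells at 14 members at day 5, of which 6 were nearer the top (1.25% of all regions) and 8 further down (1.15% of all regions), with 2.4% of all regions called in either direction. Of the streak regulators, Evx1, T and Nkx1-2 were further down, with a median over the 9 members of 0.76. T had a log2 difference of MUT from WT of 1.23 (SE 0.27, limma adjusted p = 0.012) and Evx1 one of 1.30 (SE 0.25, adjusted p = 0.0050). Runx3 (1.73, adjusted p = 0.00028) and Gata4 (1.42, adjusted p = 0.0079) were further down as well. Nearer the top were the region near Ezh2, Rfx4, Otp, a hypothalamic regulator, Pax2, the region near Zmat1 and Prdm12, a gene of sensory neurons. By the highest point of the signal 1 member was called, the one near Zmat1, and without WT70 5 and without CM69 6.

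KO and MUT were also set against each other at day 5. There, 39 members were further down in KO (1.59% of all regions) and 8 nearer the top (4.34% of all regions), with 5.93% of all regions called in either direction. The power for the 2 directions may be unequal here too, as it was in the simulated ranks for KO against WT. Col13a1 had the smallest p, with a log2 difference of KO from MUT of 2.45 (SE 0.22, limma adjusted p = 9.9e-08), followed by Lhx1 (3.42, SE 0.45, adjusted p = 4.2e-05). Ptch1, the Hedgehog receptor, ranked 1016 and 1400 in KO and 299 and 323 in MUT, and 444 and 327 in WT. Of the streak regulators 5 of 9 were further down in KO (T, Lhx1, Foxa2, Eomes and Evx1) and 1, Nkx1-2, was nearer the top, at 443 and 389 in KO and 818 and 836 in MUT. Pax5, Lmx1b, Pax7 and En1 were nearer the top in KO than in MUT. Both members at feeder fibroblast markers were further down in KO than in MUT as well (median 0.91), Pdgfra at 624 and 751 in KO and 445 and 261 in MUT and Twist2 at 782 and 688 in KO and 453 and 383 in MUT. The part of feeder cells in these differences was not tested. Ranked by the highest point of the signal, Col13a1 (limma adjusted p = 0.14), Lhx1 (0.072), Ptch1 (0.082), En1 (0.28), Pax7 (0.80), Lmx1b (0.90) and Nkx1-2 (0.90) kept their direction and lost the call. Pax5 turned the other way (log2 difference 0.33) without passing. Nrp2 and the region of Cyp26a1 and Cyp26c1 were still called further down in KO (adjusted p = 0.010 and 0.029). The count was 5 by the highest point of the signal, 16 without KO1, 31 without KO15 and 25 without CM69.

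XAV went with more calls in KO than in WT. In KO, 54 members were nearer the top with XAV (6.45% of all regions) and 27 further down (9.69% of all regions), with 16.1% of all regions called in either direction. In WT, 13 were nearer the top (3.03% of all regions) and 8 further down (0.914% of all regions), with 3.94% in either direction. The difference between the KO and WT responses was tested in the same model and passed at 42 members, 32 with a negative (2.48% of all regions) and 10 with a positive difference (3.89% of all regions), against 6.37% of all regions in either direction. T ranked 164 and 142 in KO at day 5 XAV and 985 and 1179 in KO at day 5, a log2 difference of -2.82 (SE 0.27, limma adjusted p = 2.1e-07), while in WT it ranked 131 and 145 with XAV and 162 and 163 without (-0.24, adjusted p = 0.93). With XAV all 6 libraries of the 3 genotypes ranked T within 131 to 164.

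All 7 streak members that were further down in KO than in WT at day 5 were nearer the top in KO with XAV than without, with a median over the 9 of -1.76. Both comparisons use the KO libraries of day 5, so the second does not repeat the first on new samples. Lhx1 ranked 44 and 38 in KO with XAV and 299 and 1870 without (-4.19, SE 0.45, limma adjusted p = 7.6e-07), and Foxa2 65 and 72 with XAV and 238 and 747 without (-2.62, SE 0.35, adjusted p = 1.7e-05). Of 13 endoderm members 5 were nearer the top with XAV in KO (median -0.68), and of 30 mesoderm members 9 (median -0.31), against 6.45% of all regions. Ptch1 ranked 277 and 273 in KO with XAV and 1016 and 1400 without. Of the feeder fibroblast markers, Pdgfra was nearer the top with XAV in KO, at 248 and 247 with XAV and 624 and 751 without, and Twist2 was not called. Of the midbrain and hindbrain regulators that were nearer the top in KO than in WT at day 5, Lmx1b, Pax5, Pax2 and Wnt1 were further down with XAV. Lmx1b ranked 149 and 178 in KO with XAV and 35 and 42 without.

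Of 17 forebrain and eye field members 5 were further down with XAV in KO and 4 in WT, and 0 were nearer the top in either. Over all regions 9.69% were further down in KO and 0.914% in WT. Six3, required for the forebrain and eye, ranked 374 and 588 in KO, 430 and 304 in MUT and 477 and 512 in WT at day 5 XAV, and 58 and 66 in KO, 46 and 36 in MUT and 83 and 41 in WT at day 5. No library with XAV overlaps one without, in any genotype. The log2 difference was 2.92 in KO (SE 0.28, limma adjusted p = 1.9e-07) and 3.08 in WT (SE 0.28, adjusted p = 2.1e-07). Rax, the retinal homeobox gene, ranked 566 and 612 in KO, 548 and 618 in MUT and 774 and 745 in WT with XAV and 338 and 336 in KO, 260 and 226 in MUT and 216 and 207 in WT without. Lhx2, a forebrain and eye gene, ranked 71 and 43 in KO, 61 and 85 in MUT and 95 and 98 in WT with XAV and 29 and 28 in KO, 21 and 16 in MUT and 21 and 18 in WT without. Pax6, of eye and forebrain, passed the test in KO (1.89, adjusted p = 0.00015) and in WT (1.52, adjusted p = 0.0045). The medians of the 17 were 0.02 in KO and 0.27 in WT. By the highest point of the signal 45 members were called in KO and 11 in WT, with Six3 called in both, and Pax2 (-0.33) and Pax6 (-0.11) turned the other way in KO without passing the test. Without KO1 there were 30 calls in KO and without KO15 37, and without WT70 there were 12 in WT and without WT72 8.

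**Figure D5:**
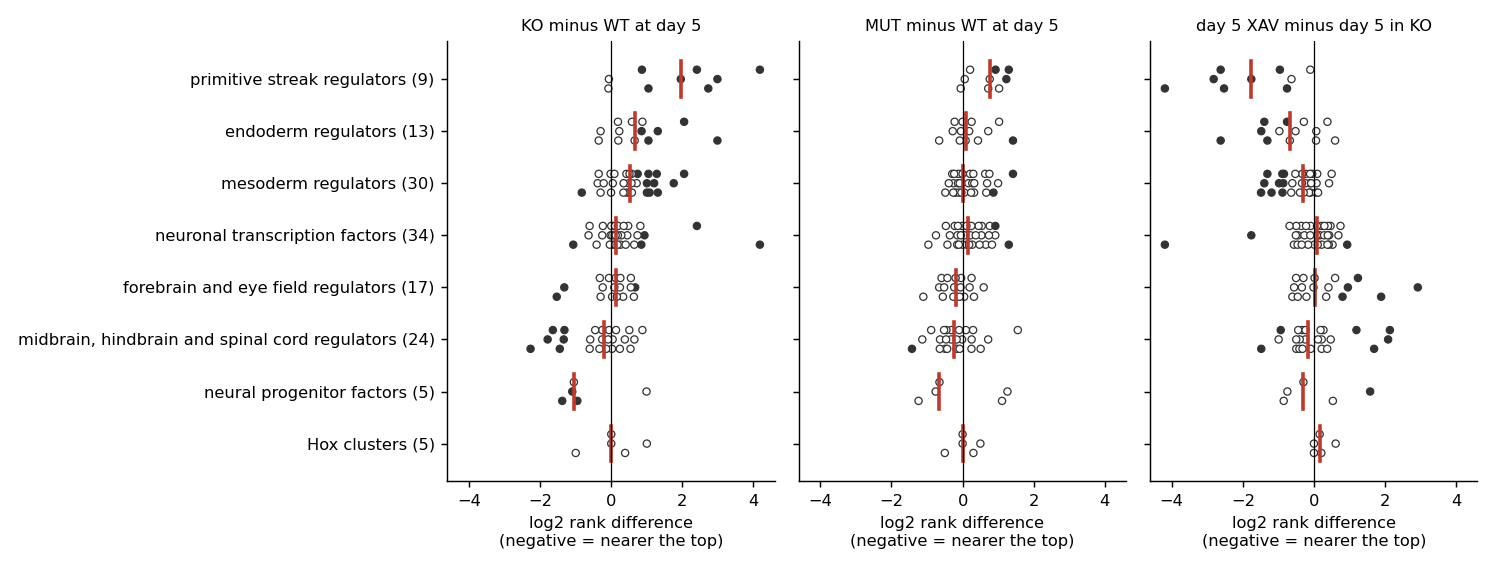
Log2 rank difference (x axis, negative nearer the top) of each member in the gene lists for KO against WT at day 5, MUT against WT at day 5 and XAV against no XAV in KO at day 5, with filled points at adjusted p below 0.05 and a red bar at the median of the list. The median of the primitive streak list is 1.96, 0.76 and -1.76 in these 3 panels, while that of the 5 Hox members is 0.00 in the first.

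With XAV present, KO and WT differed at 19 members, 10 nearer the top in KO (3.08% of all regions) and 9 further down (1.72% of all regions), with 4.81% of all regions called in either direction. MUT and WT differed at 18, 7 nearer the top in MUT (0.47% of all regions) and 11 further down (2.43% of all regions), with 2.9% in either direction. Nr2f2, a nuclear receptor gene of caudal forebrain and mesoderm, ranked 26 and 16 in KO, 33 and 68 in MUT and 166 and 127 in WT with XAV (KO against WT -2.83, SE 0.35, limma adjusted p = 2.0e-05). Its difference was 1.07 by the highest point of the signal and did not pass (adjusted p = 0.79). Gata2, a blood and neuronal factor, ranked 61 and 58 in KO, 68 and 54 in MUT and 28 and 26 in WT. WT stands apart at both genes, while KO and MUT overlap at Gata2. En1, a midbrain-hindbrain gene, ranked 142 and 120 in MUT, against 41 and 48 in WT. Neither Gata2 nor En1 passed by the highest point of the signal. Gata2 had differences from WT of 0.67 in KO (limma adjusted p = 0.80) and 0.44 in MUT (0.97), and En1 0.14 in MUT (0.97). By the highest point of the signal 2 members were called for KO and 1 for MUT, and with the same number of peaks 62 for KO. Without the sparse CM59 library 8 members were called for MUT. For KO there were 4 calls without KO1, 5 without KO15, 8 without WT70 and 7 without WT72, and for MUT 5 without CM59, 6 without WT70 and 4 without WT72.

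Over the 5 days, more members were called nearer the top than further down by rank. On another scale the balance turned in KO and was near even in WT. In KO, 113 were nearer the top at day 5 than at day 0 (17.4% of all regions) and 67 further down (16.4% of all regions), with 33.8% in either direction. In WT, 93 were nearer the top (7.78% of all regions) and 36 further down (11.1% of all regions), with 18.9% in either direction. With log2 signal relative to the median member in place of rank, 72 members were higher and 93 lower at day 5 in KO, and 81 higher and 84 lower in WT. That scale centres each library on its median member, so it cannot show a shift of the members as a set. Its p-values were adjusted over the 440 members alone, so its counts are not on the same footing as those by rank. The median log2 difference over members was -0.18 in KO and -0.25 in WT, against 0.04 in KO and -0.05 in WT over all kept regions. The values over all kept regions depend on how many regions had a peak and are no baseline for members. Tbx3 ranked 14 and 16 in KO, 9 and 17 in MUT and 11 and 10 in WT at day 5, against 217 and 258 in KO, 126 and 77 in MUT and 68 and 114 in WT at day 0 (WT difference -3.07, SE 0.32, limma adjusted p = 2.9e-07). It was already at 11 to 20 in all 6 libraries of day 2. Its covered width at day 5 was 36.3 and 38.7 kb in KO and 28.6 and 33.8 kb in WT, against 10.2 and 11.98 kb in KO and 23.3 and 21.1 kb in WT at day 0.

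Over all regions, 17.4% were nearer the top at day 5 and 16.4% further down in KO, and 7.78% and 11.1% in WT. Of 30 mesoderm regulators, 12 were nearer the top at day 5 and 3 further down in KO (median -0.49). In WT 18 were nearer the top and 0 further down (median -0.86), with Tbx3, Gata2, Gata4, Hand2 and Nkx2-5 among them. Of 13 endoderm regulators, 2 were nearer the top and 2 further down in KO, the second pair being Gata6 and Foxa2 (median -0.15), and in WT 6 were nearer the top and 0 further down (median -0.89). The KO counts of the endoderm list were near the shares over all regions. Of 34 neuronal transcription factors, 12 were nearer the top in KO and 3 further down, Lhx1, Evx1 and Onecut3, and in WT 11 were nearer the top, such as Lbx1, Mnx1 and Pou4f1, and 0 further down. Of the 5 Hox members 4 were nearer the top in KO and 3 in WT. The HoxA, HoxB, HoxC and HoxD clusters were at the very top in all libraries. On the log2 scale a call at these clusters is a move of only a few places. Of 5 members at neuronal function genes, 1 was nearer the top and 2 further down in KO, and 2 were nearer the top and 1 further down in WT. Kcnh3, a potassium channel gene outside the lists, ranked 271 and 303 in WT at day 5 and 1143 and 1347 at day 0 (-2.11, SE 0.22, adjusted p = 2.9e-07).

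Of 24 midbrain, hindbrain and spinal cord regulators, 6 were nearer the top and 3 further down in KO (median -0.30), whereas in WT 5 were nearer the top and 9 further down (median 0.37). Over all regions 17.4% were nearer the top and 16.4% further down in KO, and 7.78% and 11.1% in WT. The KO counts of this list were not far from these shares. Lmx1b ranked 35 and 42 in KO at day 5 and 16 and 14 in KO at day 0. In WT, where its p was the smallest among the members further down, it ranked 122 and 144 at day 5 and 16 and 13 at day 0 (3.20, SE 0.22, limma adjusted p = 4.8e-10). The fall at Lmx1b was smaller in KO, with a difference between the KO and WT effects of -1.84 (SE 0.30, adjusted p = 0.00065). T had a difference of 3.05 between these effects (SE 0.38, adjusted p = 3.1e-05). Such a difference passed at 49 members, 21 negative (4.31% of all regions) and 28 positive (2.77% of all regions), against 7.08% of all regions in either direction. By the highest point of the signal 86 members were called over time in KO and 72 in WT. Without KO1 there were 111 calls in KO and without KO15 105, and without WT70 there were 51 in WT and without WT72 70.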

How the data were processed

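H3K27me3 and control IgG CUT&RUN libraries were made from 8 cell lines. Per the sources, the authors used Trim Galore for trimming and Bowtie for alignment to mm10 (GRCm38.p6), removed duplicates with Picard and called peaks per library against IgG with SEACR in stringent mode (version not given in the sources used here). The deposited peaks carry a signal that the authors derived from fragment coverage (total and maximum of each peak), unscaled for depth. Deposited region lists hold the outcome of the authors' own comparison and were not used.

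Overlapping peaks of 30 libraries were merged, and the 3828 regions that 2 or more libraries shared were ranked within a library by summed signal, those without a peak tied. Log2 ranks were fitted with limma 3.58.1 in R 4.3.3 on 15 cell means of genotype and time, with Benjamini-Hochberg adjustment over all 3828 regions per contrast. Covered width, peaks per region and median rank were tested by exact two-sided permutation. Libraries of a line at different days were treated as separate. Start sites and sequence came from the mm10 reference (pysam 0.24.0), and other steps used Python 3.11.15, pandas 2.3.3 and SciPy 1.17.1. In simulated ranks, 52% of regions with a log2 signal change of -1 and 16% with +1 were called, 92% to 94% at a change of 2 in either direction, and 0.441% of unchanged ones. Alternatives were other rankings, filters, equal peak numbers, a cell line block and lines left out. Named members are the 10 of best mean rank, the 10 of smallest p called in each direction of a contrast, and members at listed genes, a few of which are not reported here. The members and gene lists were chosen with earlier results of these data known. For KO25 at days 0 and 2 the free-text description names WT70, and title, line and genotype were followed. Line numbers pair the XAV comparison, since the same lines were sampled with and without XAV, and their deviations from the group correlated at 0.157 in KO, -0.284 in MUT and 0.218 in WT.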

Additional observations from a re-analysis of the deposited data

Results flagged for a closer look

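The effect of XAV at day 5 differed between KO and WT at 23 named members by the test of that difference in the same limma fit, which was added after the data were seen. Values are log2 rank differences, KO effect minus WT effect. A negative value is a move towards the top in KO relative to WT, and either genotype may have moved. Among streak, endoderm and mesoderm genes the difference was -4.19 at Lhx1, -2.63 at Foxa2, -2.58 at T, -2.02 at Evx1, -1.93 at Hand2, -1.83 at Eomes and -1.49 at Gata6. It was also negative at Col13a1 (-2.67), Nr2f2 (-2.25), Adgra2 (-1.75), the Hedgehog receptor gene Ptch1 (-1.70), the region of Gm30191, Grrp1 and Zfp593 (-1.44), Lhx2 (-1.36) and Rax (-1.04). It was positive at neural regulators, with 2.48 at Pax5, 2.46 at Rfx4, 2.31 at Pax2, 2.25 at Lmx1b, 1.91 at Pax7 and 1.42 at Sox1, and at the regions near Ezh2 (5.12), near Zmat1 (2.30) and near Gas8 (1.95). Ranked by the highest point of the signal, the XAV effect in WT near Ezh2 took the other sign (0.37) and did not pass. Lhx2 and Rax went further down with XAV in both genotypes, and less so in KO. At some members mainly WT moved. The effect was -0.25 in KO and 2.00 in WT at Nr2f2, 0.19 and -1.73 at Pax7, and 0.55 and -4.57 near Ezh2. At others, such as Lhx1 (-4.19 in KO, -0.0034 in WT), mainly KO moved.

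The change over time, day 5 minus day 0, differed between KO and WT at 15 named members by the same kind of test. The KO effect minus the WT effect was 4.24 at Lhx1, 3.05 at T, 2.99 at the region of Gm30191, Grrp1 and Zfp593, 2.69 at Evx1, 2.15 at Runx3, 1.90 at Igf2, 1.62 at Myl3 and Pth1r and 1.43 at Lbx1. It was -3.61 near Ezh2, -2.26 near Zmat1, -2.17 at Pax2, -1.92 at Rfx4, -1.84 at Lmx1b, -1.49 at Pax7 and -0.94 at Pax1. KO and WT libraries of day 5 enter both of these differences, so they are not independent. The second KO line was KO25 at day 0 and KO1 at day 5, so a change of line and a change over time cannot be told apart in that part of the comparison. Here too either genotype may have moved. At Runx3 the effect over time was 0.04 in KO and -2.11 in WT, and at Lhx1 it was 3.55 in KO and -0.69 in WT.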

How the results depend on the processing

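Values here are numbers of members called unless stated otherwise, and rank differences are on the log2 scale. Shares over all regions are given for the main setting only. A changed count of members thus cannot be told apart from a change in calls over all regions. The number of members was 440 to 545 with each line left out and 218 with the same number of strongest peaks in every library. Ranking by the highest point of the signal moved most counts: KO against WT gave 3 (day 0), 0 (day 2), 3 (day 3), 31 (day 5) and 2 (day 5 XAV), MUT against WT 1 at day 5 and 1 at day 5 XAV, KO against MUT 5, XAV 45 in KO, 11 in WT and 10 for their difference, and day 5 against day 0 86 in KO, 72 in WT and 11 for their difference. With percent ranks, KO against WT gave 23 at day 0 (3 nearer the top) and 11 at day 3 (3 nearer), MUT against WT at day 5 gave 8 (6 nearer), KO against MUT 45 (3 nearer) and XAV in WT 17 (8 nearer). The fit on log2 signal relative to the median member was adjusted over the 440 members alone. With it, KO against WT gave 5 at day 2 and 51 at day 3, MUT against WT 32 at day 5 and 38 at day 5 XAV (19 nearer), and XAV in KO 122. Limited to regions that 10 or more libraries shared, KO against WT gave 17 at day 0 and 5 at day 2, MUT against WT 33 at day 5 and 29 at day 5 XAV, and XAV in WT 34. With equal peak numbers, KO against WT gave 18 (day 0), 5 (day 2) and 62 (day 5 XAV), MUT against WT at day 5 gave 8, and day 5 against day 0 gave 115 in KO and 30 for the difference of KO from WT. With all 4512 merged regions, KO against WT at day 0 gave 7. Chosen after seeing the data, leaving out the CM59 library of day 5 XAV gave 8 for MUT against WT there, and leaving out the WT70 library of day 3 gave 9 for KO against WT there.

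With each line left out in turn, counts for KO against WT were 2 to 21 (day 0), 0 to 3 (day 2), 5 to 28 (day 3), 45 to 90 (day 5) and 4 to 21 (day 5 XAV), for MUT against WT 5 to 16 at day 5 and 4 to 22 at day 5 XAV, and for KO against MUT 16 to 52. They were 30 to 86 for XAV in KO, 8 to 27 in WT and 14 to 48 for the difference, and over time 105 to 183 in KO, 51 to 138 in WT and 19 to 55 for the difference. A line left alone in its group is then assumed to vary like the other groups. Covered width was -265 to 652 bp for MUT minus WT, -799 to 176 bp for day 5 minus day 0 and -1.42 to 464 bp for XAV. Peaks per region were -0.0041 to 0.069 for KO minus WT, -0.036 to 0.0020 for MUT minus WT and -0.099 to 0.0027 for day 5 minus day 0, and the median rank of MUT minus WT was -6.7 to 1.2.

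With equal peak numbers, peaks per region became -0.061 for KO minus WT and 0.14 for day 5 minus day 0, and median rank 11.6 for KO minus WT and -39.1 for day 5 minus day 0, all 4 past the threshold, while 0.0068 peaks per region for MUT minus WT and 237 bp of covered width for day 5 minus day 0 did not pass. Means in place of medians gave 234.95 bp for day 5 minus day 0 and a rank difference of -18.8 for XAV, and ranks by the highest point gave -12.2 for XAV and -75.2 for day 5 minus day 0. Peaks per region of MUT minus WT were 0.00068 without the CM59 library and 0.0048 without the WT70 library. A replicate block by line changed no call among the 192 named values, with 79 members called for XAV in KO and -0.17 peaks per region for XAV (exact p = 0.0625 within pairs).

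Ranked by the highest point, 22 named values took the other sign: KO against WT at day 0 Gm30191 and Grrp1 and Zfp593 0.065, Tbx3 -0.38, at day 3 Trp73 and Wrap73 0.89, Skor1 0.10, at day 5 Pax2 1.22, Sox1 0.12, Gata4 -0.41, at day 5 XAV Nr2f2 1.07, Cdkn2a and Cdkn2b 0.46. MUT against WT at day 5 XAV Otp 0.060, near Tbx5 -0.27, KO against MUT at day 5 Pax5 0.33, day 5 against day 0 in WT Irx3 -0.19, Pax2 -1.47. The same in KO Ankrd63 -0.43, XAV in WT near Ezh2 0.37, En2 0.87, Dmbx1 0.53, Nr2f2 -0.31, XAV in KO Pax2 -0.33, Pax6 -0.11, Kcnj12 -0.043. With equal peak numbers, Ntn1 in KO against WT at day 0 was -0.0058. The causes of these changes were not tested. Read depth is unknown, a group has 2 lines, and ranks of summed signal depend on how widely a peak was called and on how many regions a library holds.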

Other observations

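A few members outside the gene lists held genes of growth control and of neuronal function. Cdkn2a and Cdkn2b (chr4:89267749-89311447), which encode inhibitors of the cell cycle, ranked 20 and 31 in KO, 20 and 23 in MUT and 148 and 123 in WT at day 5 XAV, with a log2 difference of -2.44 for KO against WT (SE 0.62, limma adjusted p = 0.025) and -2.65 for MUT against WT (SE 0.62, adjusted p = 0.017). WT stood apart there, whereas at day 5 without XAV the ranks were 111 and 93 in KO, 26 and 62 in MUT and 63 and 38 in WT. Ranked by the highest point of the signal, the KO difference at day 5 XAV was 0.46 and did not pass. Igf2, the imprinted growth factor gene, ranked 745 and 836 in KO, 309 and 409 in MUT and 262 and 300 in WT at day 5 (KO against WT 1.49, SE 0.22, adjusted p = 4.9e-05, and 0.083 by the highest point). Nefh, a neurofilament gene, ranked 325 and 286 in KO at day 5 and 1063 and 1323.5 at day 0 (-1.96, SE 0.22, adjusted p = 4.9e-07), and Camk2b, a neuronal kinase gene, 461 and 413 in WT at day 5 and 1126 and 1761 at day 0 (-1.69, SE 0.27, adjusted p = 6.4e-05).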
